A study of Mus musculus with 8 samples.

Results

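The Hedgehog ligand Shh and 8 genes of its reception and relay (Ptch1, Smo, Boc, Gas1, Hhip, Sufu, Gli2 and Gli3) were followed in dental epithelia of the mouse incisor. They were chosen by name, as every noncontrol probe whose design accession maps to one of the 9 genes. That gave 14 of the 41174 noncontrol probes of the array and 9 of the 17178 genes that could be given a symbol. RNA of 4 samples homozygous null for Bmi1 (Bmi1-/-) and of 4 wild-type (WT) samples had been measured on Agilent arrays of 1 colour, with 1 array for each sample. All 8 samples came from mice of a mixed genetic background, and the epithelium had been parted from the mesenchyme by hand after the whole incisor was treated with accumax, a cell-detaching enzyme mix. Bmi1 encodes a subunit of Polycomb repressive complex 1, which holds genes silent through chromatin. The age and sex of the mice, and whether each sample came from a mouse of its own, are not given in the sources used here, so the p-values measure only the spread between these samples. The comparison of the genotypes asks how transcript levels of the pathway stand in incisor epithelium that lacks Bmi1.

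Hedgehog ligands are secreted proteins that bind the receptor Ptch1. Without ligand, Ptch1 holds the membrane protein Smo inactive, Sufu keeps the Gli transcription factors in check, and Gli3 is processed to a repressor; with ligand, Smo is released and Gli proteins, Gli2 foremost, switch target genes on. Ptch1, Hhip and Gli1 are themselves targets, so their transcripts serve widely as readouts of signalling. In the mouse incisor, Shh is made by the epithelium near the growing end of the tooth, and cells of both the epithelium and the neighbouring mesenchyme respond to it.

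A value below is a log2 signal relative to the 75th percentile of its own array, so 0 is the level of that percentile. Values of different probes are not set against each other, since probes differ in brightness at equal RNA. Fold changes are Bmi1-/- minus WT on the log2 scale. Adjusted p-values come from limma with Benjamini-Hochberg adjustment at 5% over all 22347 genes tested. In that number, and in every share of all genes below, a kept probe without a gene symbol counts as a gene of its own. In bulk samples, fewer cells of a type and less RNA per cell cannot be told apart.

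The Bmi1 signal separated the arrays by their genotype labels. The tested Bmi1 probe stood between -2.92 and -1.04 in Bmi1-/- samples, against 1.16 to 1.27 in WT samples (log2 fold change -2.82 ± 0.37 SE, limma adjusted p = 0.0305). The 75th percentile of the signal was 440.3 to 795 in Bmi1-/- samples and 617 to 1900 in WT samples, and 64.2% to 68.2% of probes were well above background in Bmi1-/- samples, against 69.6% to 74.4% in WT samples. One array, Bmi1-/- replicate 1, stood apart from the rest. Its median rank correlation with them was 0.950, against 0.975 to 0.981 for each of the others, and of 22291 genes with a value on every array it was the highest of the 8 for 22.8% and the lowest for 34.1%. Fold changes at the tested probes of the Hedgehog genes are therefore given with and without it.

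Both epithelial and mesenchymal markers were detected on every array. All 11 tested epithelial markers (Krt14, Krt5 and others) and all 15 dental mesenchyme markers (Col1a1, Postn and others) were well above background on all 8 arrays, so no tested marker of either list was absent. The summed epithelial signal was 436 to 691 times the 75th percentile in Bmi1-/- samples, against 265 to 364 in WT samples. The summed signal of ameloblast markers, the enamel-forming cells, was 345 to 508 in Bmi1-/- samples, against 177 to 242 in WT samples. Neither sum overlapped between the genotypes, but the mean log2 level over each list did. Relative to the WT mean, that level was 0.16 to 1.0 in Bmi1-/- samples and -0.12 to 0.29 in WT samples for the epithelial list, and 0.12 to 2.16 in Bmi1-/- samples and -0.95 to 0.77 in WT samples for the ameloblast list. The fold change was positive for all 11 epithelial and 8 of 9 tested ameloblast markers. None of them passed the 5% threshold, as 0.0403% of all genes did in the higher direction, and 6 of 11 and 8 of 9 were higher at an unadjusted p under 0.05, where 4.21% of all genes were. Krt14 and Krt5, keratins of basal epithelium, had fold changes of 0.97 and 0.81, and Ambn and Amelx, which encode enamel matrix proteins, 0.95 and 0.94 (limma adjusted p = 0.677, 0.681, 0.311 and 0.521). The summed mesenchymal signal was 385 to 785 in Bmi1-/- samples and 380.35 to 540 in WT samples, with 8 of 15 fold changes positive. Col1a1 had a fold change of 0.98 and Postn one of -0.93 (limma adjusted p = 0.761 and 0.770). Endothelial markers summed to 23.2 to 40.0 in Bmi1-/- and 29.1 to 49.8 in WT samples, with 1 of 10 fold changes positive. Immune markers summed to 9.16 to 14.6 in Bmi1-/- and 8.41 to 18.6 in WT samples, with 2 of 9 fold changes positive. Nerve and Schwann markers summed to 18.2 to 24.4 in Bmi1-/- and 14.2 to 22.0 in WT samples, and cervical loop and cycling-cell markers to 43.2 to 55.6 in Bmi1-/- and 41.8 to 74.2 in WT samples. These 5 sums overlapped between the genotypes. At an unadjusted p under 0.05, 2 of 10 endothelial and 2 of 9 immune markers were lower, where 2.16% of all genes were. Of 15 mesenchymal markers 2 were higher and 1 lower. Of 7 nerve and Schwann markers 1 was higher, and of 11 cervical loop and cycling-cell markers 0 were higher or lower. None of these passed the 5% threshold, as 0.0492% of all genes did. In Bmi1-/- replicate 1 the mean log2 level over the epithelial list was 1.0 above the WT mean, that of the ameloblast list 2.01 above it and that of the mesenchymal list 0.68 below it (a difference of -0.68). The part of these cell types in the values below was not tested.

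**Figure D1:**
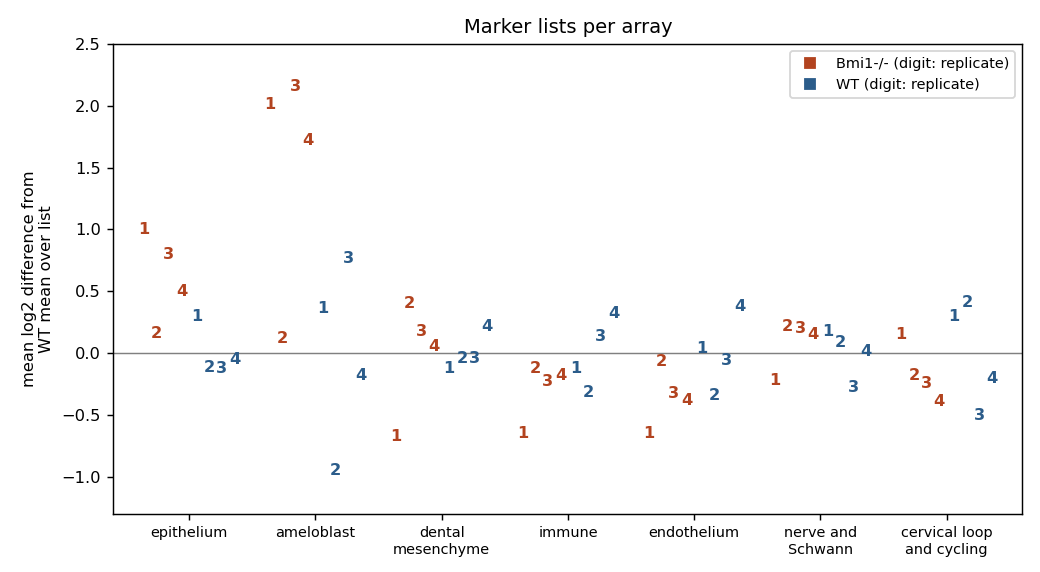
Mean log2 difference of each marker list from its WT mean (vertical axis), per array, with a digit for the replicate, for Bmi1-/- samples (left of each pair) and WT samples (right). Bmi1-/- replicate 1 sits 1.0 above the WT mean in epithelial and 2.01 above it in ameloblast markers, and at -0.68 in mesenchymal markers.

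No Hedgehog gene differed between the genotypes past the threshold. All 9 were detected and tested, and 0 of 9 passed, where 0.0492% of all genes did (11 of 22347). Of these 11, 9 were higher (0.0403% of all genes) and 2 lower (0.00895%) in Bmi1-/- samples, or 9 and 4 under quantile normalization or cyclic loess. Without adjustment, 0 of 9 had a p under 0.05, where 6.36% of all genes did. The arrays of the genotypes overlapped for all 9, while 3.06% of all genes had no overlap. The fold change was positive for 5 and negative for 4, with a median of 0.14, and for all genes tested 51.4% were positive with a median of 0.01. Without Bmi1-/- replicate 1, 3 of the 9 were positive with a median of -0.08, and the median of all genes was 0.05. Without it the fold changes of Shh, Hhip and Gas1 were -0.08, -0.21 and -0.41, and those of Smo, Sufu and Gli3 were 0.03, 0.14 and 0.02.

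**Figure D2:**
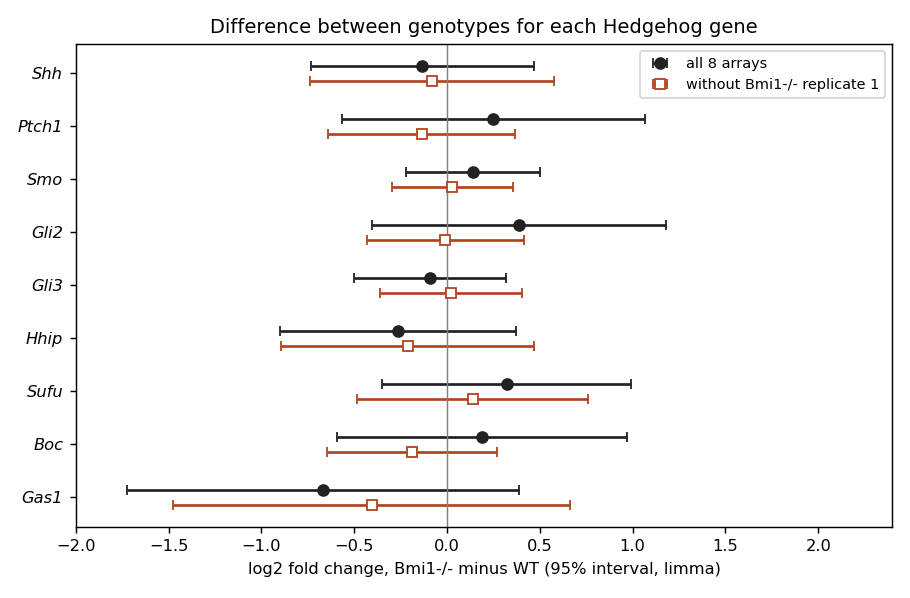
Log2 fold change, Bmi1-/- minus WT (horizontal axis), of the 9 Hedgehog genes with its 95% interval from limma, over all 8 arrays (filled circles) and without Bmi1-/- replicate 1 (open squares). Every interval holds 0, and Ptch1, Gli2, Gli3 and Boc change sign when that array is left out.

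The intervals of the tested probes bound the size of change at 1 probe per gene. For Shh, Smo, Gli3, Hhip, Sufu and Boc, the 95% interval lay within a 2-fold change in either direction. For Ptch1, Gli2 and Gas1 it reached past 2-fold on 1 side. The second probes of Hhip, Smo and Gli2 had wider intervals, all past 2-fold. On the log2 scale these ran from -1.61 to -0.0041, from -1.55 to 1.55 and from -1.10 to 1.66. With changes added to simulated arrays like these, limma recovered 9 of 50 genes changed 2-fold (log2 change of 1) and 37 of 50 changed by 2 on the log2 scale, so a change near 2-fold would often have been missed.

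The ligand Shh, the secreted signal of the epithelium, was well above background on all 8 arrays. Its values were 3.08, 3.29, 2.81 and 3.76 in Bmi1-/- replicates 1 to 4, against 3.68, 3.78, 2.71 and 3.30 in WT replicates 1 to 4. High and low samples occurred in both genotypes, and the lowest and highest of the 8 were both WT. The means were 3.23 ± 0.40 in Bmi1-/- samples and 3.37 ± 0.48 in WT samples (SD, n = 4 each). The fold change was -0.13 ± 0.27 (SE, limma adjusted p = 0.919), a ratio of 0.912 with a 95% interval of 0.601 to 1.38. Unlike most genes of the set, Shh was not extreme in Bmi1-/- replicate 1. Over the 8 arrays, the genes whose centred values were most like those of Shh were Klhl23, Rad51c and Zbed4, with root mean square differences of 0.129, 0.153 and 0.169 on the log2 scale, where Shh itself varied by 0.390.

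Ptch1, the ligand's receptor and a target of the pathway, was raised in 1 sample. Its values were -1.49, -2.77, -3.13 and -3.16 in Bmi1-/- samples, against -2.70, -2.78, -3.00 and -3.07 in WT samples. The high sample, Bmi1-/- replicate 1, was 1.21 above the next array, and the other 3 Bmi1-/- samples lay within or just below the WT values. The means were -2.64 ± 0.79 in Bmi1-/- samples and -2.89 ± 0.18 in WT samples (SD, n = 4 each), with a fold change of 0.25 ± 0.37 (SE, limma adjusted p = 0.886). Without Bmi1-/- replicate 1 the fold change was -0.14 (limma adjusted p = 0.945).

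The coreceptors Boc and Gas1, cell-surface proteins that bind ligand together with Ptch1, moved in opposite directions in Bmi1-/- replicate 1. Boc had 0.37, -1.34, -0.92 and -1.16 in Bmi1-/- samples, against -1.0, -1.23, -0.63 and -0.96 in WT samples. Again Bmi1-/- replicate 1 was the highest, by 0.998 over the next array, and without it the fold change was -0.19 (limma adjusted p = 0.904), against 0.19 ± 0.35 (SE, limma adjusted p = 0.909) over all 8 arrays. Gas1 had -0.71, -0.37, 0.24 and 1.13 in Bmi1-/- samples, against 0.31, -0.19, 1.82 and 1.02 in WT samples. Its values spread widely within both genotypes and overlapped between them, and Bmi1-/- replicate 1 was the lowest of the 8. The means of Gas1 were 0.07 ± 0.81 in Bmi1-/- samples and 0.74 ± 0.87 in WT samples (SD, n = 4 each). Its fold change of -0.67 ± 0.48 (SE, unadjusted p = 0.190, limma adjusted p = 0.806) was the furthest from 0 of the 9 over all 8 arrays, and its 95% interval ran from a ratio of 0.302 to one of 1.31. It was -0.41 without Bmi1-/- replicate 1 and -0.31 without WT replicate 3. Without WT replicate 3, Hhip at -0.54, Gli2 at 0.48 and Shh at -0.35 were further from 0. The mean log2 level over the mesenchymal markers, relative to the WT mean, was -0.68, 0.40, 0.17 and 0.05 in Bmi1-/- samples, against -0.13, -0.05, -0.05 and 0.22 in WT samples. Bmi1-/- replicate 1 was the lowest array for both Gas1 and this list, while Bmi1-/- replicate 2 was low for Gas1 and the highest for the list. Whether mesenchymal RNA has a part in the Gas1 values was not tested.

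Hhip, a membrane protein that binds and sequesters ligand and is a target of the pathway, had lower means in Bmi1-/- samples at both of its probes, with neither past the threshold. The tested probe had -0.66, -0.39, -0.57 and -0.41 in Bmi1-/- samples, against 0.35, -0.26, -1.09 and 0.02 in WT samples. The Bmi1-/- samples were close together and lay inside the range of the WT samples, and the fold change was -0.26 ± 0.29 (SE, limma adjusted p = 0.848). A second Hhip probe had -3.00, -2.69, -2.41 and -1.47 in Bmi1-/- samples, against -1.32, -1.45, -2.30 and -1.26 in WT samples. At this probe 3 of the 4 Bmi1-/- samples were below every WT sample, and Bmi1-/- replicate 4 was not. Its means were -2.39 ± 0.66 in Bmi1-/- samples and -1.58 ± 0.48 in WT samples (SD, n = 4 each), with a fold change of -0.81 ± 0.36 (SE, unadjusted p = 0.0490, limma adjusted p = 0.811 over all 28606 probes). It was the only 1 of the 14 probes under an unadjusted p of 0.05, where 5.99% of all probes were, with 2.21% of all probes in the lower direction. Bmi1-/- replicate 1 was the lowest array at this probe, at -0.81 relative to the mean of the other Bmi1-/- samples. The fold change without that array is not given for this probe. None of the 14 passed 5%, as 0.0385% of all probes did, and none had genotypes that did not overlap, as 2.89% of all probes did. 

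Smo, the membrane protein that passes the signal inward, was detected on every array at close values. The tested probe had 5.49, 5.15, 5.03 and 4.95 in Bmi1-/- samples, against 5.05, 5.19, 4.88 and 4.94 in WT samples. The values of all 8 arrays lay within a narrow range, and the fold change of 0.14 ± 0.16 (SE, limma adjusted p = 0.851) had a 95% interval of 0.860 to 1.41 as a ratio. Another Smo probe, dimmer, had -0.39, -3.24, -3.52 and -4.08 in Bmi1-/- samples, against -2.84, -3.16, -1.91 and -3.32 in WT samples. Here Bmi1-/- replicate 1 was 1.52 above every other array, and the other 3 Bmi1-/- samples lay within or below the WT values. The fold change at this probe was -0.00075 over all 8 arrays (limma adjusted p = 0.9998 over all probes). It includes Bmi1-/- replicate 1, which was 3.22 above the mean of the other Bmi1-/- samples. The value without that array is not given for this probe.

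Sufu, the inhibitor that binds Gli proteins, was dim but above background. Its tested probe had -3.68, -4.36, -4.10 and -4.78 in Bmi1-/- samples, against -4.32, -4.47, -4.75 and -4.66 in WT samples. The highest of the 8 was Bmi1-/- replicate 1 and the lowest Bmi1-/- replicate 4, so the genotypes overlapped. The fold change was 0.32 ± 0.30 (SE, limma adjusted p = 0.831), and the second Sufu probe, well above background in 2 of 4 Bmi1-/- and 4 of 4 WT samples, gave -0.08.

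The Gli transcription factors had 2 probes each. Gli2, the main activator, had 0.54, -1.08, -1.0 and -1.06 in Bmi1-/- samples, against -1.0, -1.32, -0.75 and -1.07 in WT samples. The value of Bmi1-/- replicate 1 was 1.29 above every other array, and the SD of the other 3 Bmi1-/- samples was 0.04. The means were -0.65 ± 0.79 in Bmi1-/- samples and -1.04 ± 0.24 in WT samples (SD, n = 4 each), the fold change was 0.39 ± 0.36 (SE, limma adjusted p = 0.83), and without Bmi1-/- replicate 1 it was -0.01 (limma adjusted p = 0.995). The second Gli2 probe had -3.74, -6.29, -5.09 and -5.84 in Bmi1-/- samples, against -6.30, -5.86, -4.04 and -5.87 in WT samples. It was well above background in 3 of 4 Bmi1-/- and 4 of 4 WT samples, replicate 1 was again the highest, and the fold change was 0.28 (limma adjusted p = 0.927 over all probes). Gli3, which serves chiefly as a repressor, had 2.39, 2.91, 2.65 and 2.97 in Bmi1-/- samples, against 2.76, 3.15, 2.62 and 2.76 in WT samples. The samples of both genotypes were mixed, Bmi1-/- replicate 1 was the lowest, and the fold change was -0.09 ± 0.19 (SE, limma adjusted p = 0.919) with a ratio interval of 0.706 to 1.25. A second Gli3 probe was well above background in 0 of 4 Bmi1-/- and 4 of 4 WT samples. It was thus kept through its WT samples alone. Its measured means were -6.29 in Bmi1-/- and -5.98 in WT samples (limma adjusted p = 0.838 over all probes). The fold change was -0.32, with an interval from -0.98 to 0.35 on the log2 scale. The genotypes overlapped, with WT replicate 1 at -6.30 and Bmi1-/- replicate 2 at -6.14. The lowest signal well above background differed between arrays, at -6.83 in WT replicate 1 and -5.89 in Bmi1-/- replicate 2. The counts of 0 and 4 therefore do not show a lower level. A limit for Bmi1-/- samples was the mean over their arrays of that lowest signal, or of the probe's own signal where that is higher. The WT mean was 1.07-fold above this limit, a ratio of means that does not establish a lower level in Bmi1-/- samples.

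**Figure D3:**
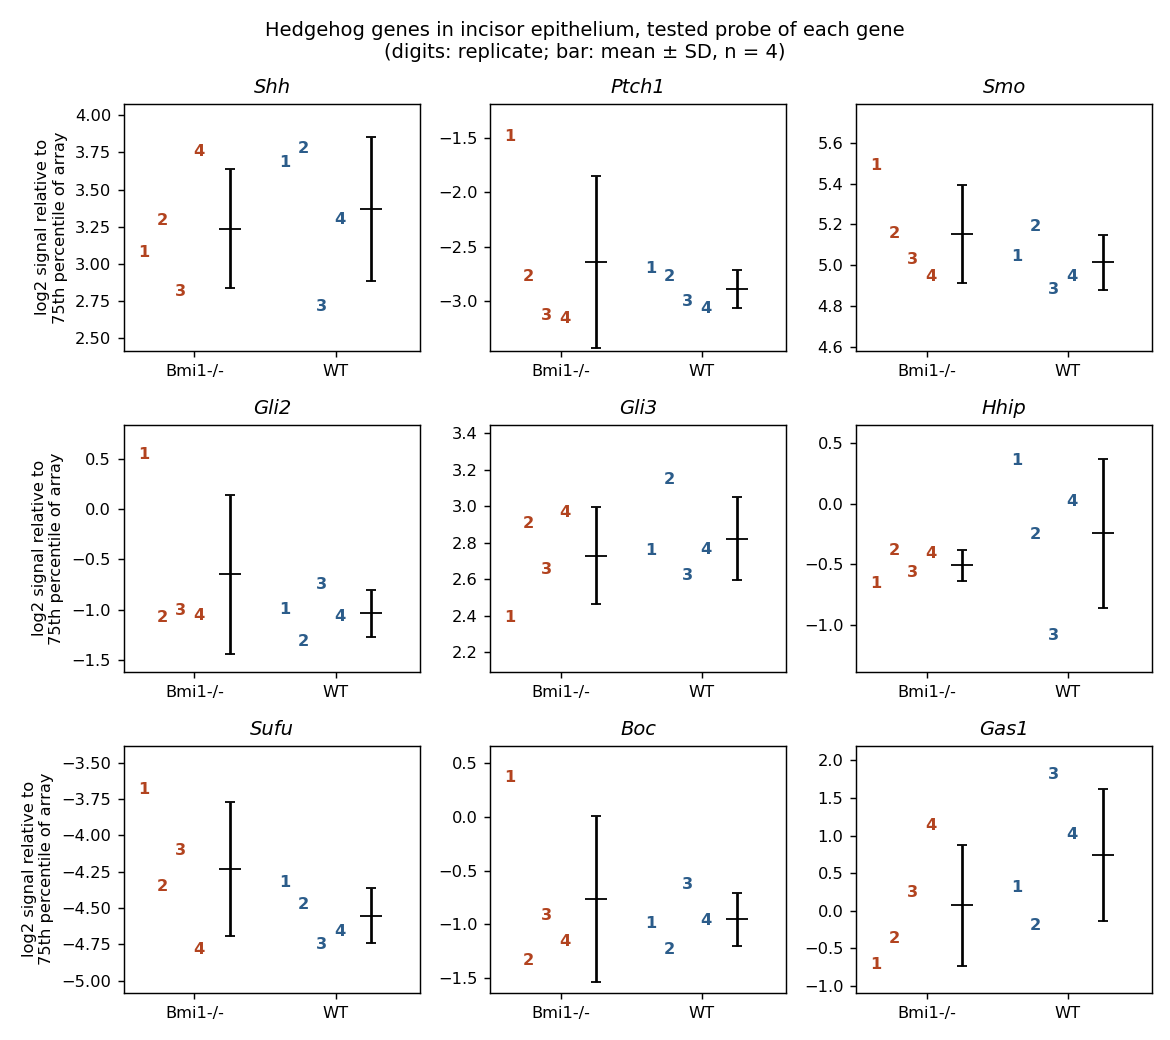
Log2 signal relative to the 75th percentile of the array (vertical axis) for the tested probe of each Hedgehog gene, with a digit for the replicate and bars for mean ± SD (n = 4), Bmi1-/- left of WT. The genotypes overlap in all 9 panels, and Ptch1 and Gli2 are more than 1 above every other array in Bmi1-/- replicate 1.

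Bmi1-/- replicate 1 held an extreme value for 7 of the 9 genes. It was the highest of the 8 arrays for Ptch1, Smo, Gli2, Sufu and Boc and the lowest for Gli3 and Gas1, where over all genes it was the highest for 22.8% and the lowest for 34.1%. At probe level it was the highest for 8 of 14. It lay more than 1 above every other array for 2 of the 9 genes, as it did for 645 genes in all (2.89%). Of the 21 tested genes of a wider list of pathway targets, 7 (33.3%) were at their highest in it, where 22.7% of all genes were, and the mean log2 level of that list there was -0.07 relative to the WT mean. Gli1, the transcription factor gene that the pathway induces, had 1.16, -0.40, -0.83 and -1.72 in Bmi1-/- samples, against -0.75, -1.02, -0.89 and -1.13 in WT samples, and it was named from that list after its values were seen. For Gli1, Bmi1-/- replicate 1 was 1.56 above every other array, the fold change was 0.50 ± 0.49 (SE, limma adjusted p = 0.840), and without that array it was -0.04. In that array Bmi1 itself was at its lowest (-2.92, against -1.22 to -1.04 in the other Bmi1-/- samples), and 75 spots were marked as outliers, against 3 to 24 on the others. The part of these in the Hedgehog values was not tested.

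**Figure D4:**
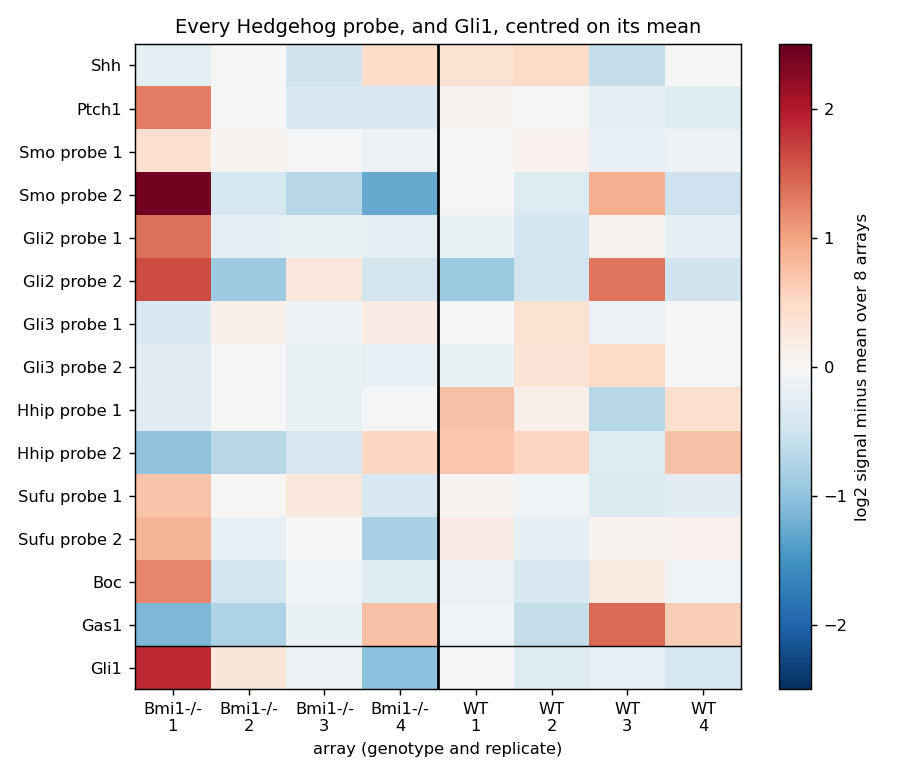
Log2 signal of each Hedgehog probe, and of Gli1, minus its mean over the 8 arrays (colour), for Bmi1-/- samples (left of the line) and WT samples (right). Bmi1-/- replicate 1 has the highest value at 8 of the 14 Hedgehog probes.

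The 8 arrays lay on 2 slides, each with 2 samples of either genotype, and Bmi1-/- replicate 1 was on slide 1. Within slide 1 the fold changes of Ptch1, Gli2, Boc, Sufu and Smo were 0.75, 0.77, 0.49, 0.48 and 0.33, and within slide 2 they were -0.26, 0.0030, -0.11, 0.17 and -0.047. Those of Shh, Gli3, Hhip and Gas1 were -0.31, -0.11, -0.71 and -1.21 within slide 1, and 0.039, -0.08, 0.18 and -0.13 within slide 2. Each fold change was thus further from 0 on slide 1. With the slide as a block the fold changes were those given above, and the limma adjusted p-values ran from 0.686 for Gas1 to 0.896 for Shh.

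The wider pathway was described by 4 lists of 76 further genes, of which 69 had a probe and 64 were tested. No gene of them passed the threshold. The fold change was positive for 37 and negative for 27, with a median of 0.05. Without Bmi1-/- replicate 1 it was positive for 32, with a median of -0.00031. At an unadjusted p under 0.05, 1 gene was higher, where 4.21% of all genes were, and 1 was lower, where 2.16% were. The genotypes did not overlap for 1 gene, where 1.81% of all genes were higher without overlap and 1.25% lower.

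Among other ligands and the proteins that process and release them, 12 of 14 were tested. Of these, 9 had fold changes above 0 and 3 below it, median 0.18. Without Bmi1-/- replicate 1, 5 of the 12 were above 0, and the median was -0.05. Dhh, the ligand best known from testis and nerve, was the lower gene, with a fold change of -0.57 (unadjusted p = 0.0488, limma adjusted p = 0.781), and Hhatl had -0.60 (limma adjusted p = 0.806) and Scube1 -0.32 (limma adjusted p = 0.840). Hhatl was dim, at -6.67, -6.51 and -6.51 in Bmi1-/- replicates 2 to 4. Those values were below the lowest signal well above background on these arrays (-5.89, -5.87 and -6.14). Its WT values ran from -6.69 to -4.74, so its fold change rests on values near background. Without Bmi1-/- replicate 1 the fold changes of Dhh, Hhatl and Scube1 were -0.40, -0.70 and -0.05. Ihh was well above background on 1 array and was not tested. Among receptors and coreceptors, 3 of 5 were tested. Cdon, a coreceptor related to Boc, had 0.80, 0.69, 0.74 and 0.91 in Bmi1-/- samples, against 0.58, 0.63, 0.50 and 0.43 in WT samples. Every Bmi1-/- sample was above every WT sample, with a fold change of 0.25 ± 0.15 (SE, limma adjusted p = 0.794). Mgrn1, a ubiquitin ligase gene of the same list, had -0.11 (limma adjusted p = 0.874).

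Of the relay, cilium and Gli processing genes, 30 of 33 were tested, 18 with a positive and 12 with a negative fold change, median 0.05. The smallest p-values were those of Gpr161, a receptor of the cilium that restrains the pathway, at 0.56 (limma adjusted p = 0.789), of the cilium motor gene Kif3a at -0.38 (limma adjusted p = 0.789), and of Fuz, which acts in cilium formation, at 0.54 (limma adjusted p = 0.791). Without Bmi1-/- replicate 1 the fold changes of Gpr161, Kif3a and Fuz were 0.49, -0.33 and 0.27. Of the target genes, 21 of 26 were tested, 10 positive and 11 negative, median -0.03. The higher gene was Ccnd2, a cyclin that drives entry into the cell cycle. It had 4.90, 4.65, 4.10 and 3.65 in Bmi1-/- samples, against 3.98, 3.70, 3.08 and 3.58 in WT samples, a fold change of 0.74 ± 0.29 (SE, unadjusted p = 0.0264, limma adjusted p = 0.770). Spp1, a bone matrix protein, had -1.39 ± 0.64 (SE, limma adjusted p = 0.784), and Cdkn1a, a cell cycle inhibitor, 0.56 (limma adjusted p = 0.789). Spp1 was lowest in Bmi1-/- replicate 1, at 0.81. Without that array the fold changes of Ccnd2, Spp1 and Cdkn1a were 0.55, -0.75 and 0.33.

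CpG-rich promoters are a known setting for Polycomb complexes, so the stretch of 250 bases before the start of each Hedgehog gene was read from the RefSeq promoter table (GRCm38.p6), where 7 of the 9 genes have an entry. The CpG count there was 41 for Ptch1, 34 for Gli3, 28 for Hhip, 22 for Gli2, 15 for Smo, 10 for Gas1 and 8 for Sufu, against a median of 6 over 32851 promoters of 27025 genes. Ptch1 stood above 98.9% of all promoters and Sufu above 57.0%, so all 7 had more CpG than the median promoter. Windows of Ptch1, the gene with the most CpG, and of Gas1, the gene with the fold change furthest from 0 over all 8 arrays, are printed 5′ to 3′ with every CpG in capitals, on the minus strand.
Ptch1, chr13:63565736-63565985 (GRCm38.p6): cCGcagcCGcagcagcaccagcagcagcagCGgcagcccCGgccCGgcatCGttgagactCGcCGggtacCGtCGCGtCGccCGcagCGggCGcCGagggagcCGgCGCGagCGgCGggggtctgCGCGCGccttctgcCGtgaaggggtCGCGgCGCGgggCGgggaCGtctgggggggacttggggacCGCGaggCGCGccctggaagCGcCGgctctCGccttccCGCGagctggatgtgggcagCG
Gas1, chr13:60177536-60177785 (GRCm38.p6): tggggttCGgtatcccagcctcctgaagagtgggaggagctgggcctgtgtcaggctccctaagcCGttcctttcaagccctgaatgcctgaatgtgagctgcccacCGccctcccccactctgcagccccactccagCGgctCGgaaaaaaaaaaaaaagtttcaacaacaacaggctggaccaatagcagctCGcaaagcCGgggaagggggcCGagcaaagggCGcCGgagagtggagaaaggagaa
The Ptch1 stretch is dense in CpG throughout, while most of those of Gas1 lie toward its 3′ end. The Gli binding motif TGGGTGGTC, searched on both strands as that or as GACCACCCA, was found in 0 of the 7 windows, and in 74 of all promoters (0.225%). That says only that these letters are not in these windows.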

How the data were processed

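RNA of 4 Bmi1-/- and 4 WT incisor epithelia was measured on 8 single-colour arrays. Per the file headers, slides were scanned on a G2505C scanner and quantified by the authors in version 10.5.1.1 of Feature Extraction on an mm9 grid. The deposited processed signal is a linear intensity, background-corrected within the array and not normalized between arrays. Deposited indicators mark spots that are well above background, saturated (none were) or outliers. The deposited series matrix holds log2 values whose ranks equal those of the raw median signal, with column medians of 6.76 to 6.77; it served as an alternative.

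Signals were taken to log2, and the array's 75th percentile was subtracted. Control spots and outlier spots were left out. Probes well above background on 4 or more of 8 arrays, whatever the genotype, were kept (28606), and the brightest kept probe on average stood for its gene. Symbols came from a RefSeq table (GRCm38.p6), which named 24844 of 41174 probes. A kept probe without a symbol was tested as a gene of its own. Genotypes were compared with limma 3.58.1 in R 4.3.3 (lmFit, eBayes with an intensity trend, two-sided, no covariate). The number of arrays limits the precision. On simulated data, 0 of 50 genes changed by a log2 change of 0.5, 9 of 50 by 1, 37 of 50 by 2 and 44 of 50 by 3 were recovered, with 6 false calls among 22091.

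The Hedgehog genes, the lists of pathway and marker genes, and the tests were chosen with earlier results of these data known. Genes named are every Hedgehog gene and probe, Bmi1, the 3 tested genes of smallest p in each other pathway list, the 2 of each marker list, and the 3 genes most like Shh; 1 gene that this rule names is not reported here. Each array was grouped by its genotype label. The title of WT replicate 1 and the name of its file carry different numbers, and the file was taken for the sample the labels link it to. The 2 slides, each with 2 arrays of either genotype, were also the 2 scans. Alternatives changed 1 choice at a time, except that the series matrix values differ at once in signal, background correction and normalization. The choices were normalization, background correction, the filter or floor for dim probes, the probe rule, the variance model, the slide, the level of Xist as a covariate, the threshold, and each array left out.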

Additional observations from a re-analysis of the deposited data

Results flagged for a closer look

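Of the 28 groups of 4 arrays examined (each Hedgehog probe in each genotype), 1 held a sample that stood apart by Dixon's criterion at 95%. It was the tested Gli2 probe in Bmi1-/- replicate 1, at 0.541609 on the log2 scale relative to the 75th percentile, against -1.08, -1.0 and -1.06 in the other 3 Bmi1-/- samples. Its gap made up 0.957 of the range of the group. Chance alone marks about 1 in 20 groups this way.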

How the results depend on the processing

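No Hedgehog gene or other pathway gene passed the threshold under any of the 25 alternatives, and no Hedgehog probe under the 23 that apply to single probes, and the lowest adjusted p of a Hedgehog gene was 0.313 (Sufu, normexp). Sufu and Gas1 kept their direction under all 25 alternatives, although the second Sufu probe on its own was at -0.08. Smo turned negative under quantile normalization (-0.13), cyclic loess (-0.071), the series matrix (-0.052) and slide 2 alone (-0.047). On slide 2 alone Shh was 0.039, Ptch1 -0.26, Hhip 0.18 and Boc -0.11. With array weights Gli3 was 0.0041 and Boc -0.093. Without Bmi1-/- replicate 1, Ptch1 was -0.14, Gli2 -0.0098, Gli3 0.021 and Boc -0.19. Shh was 0.0076 without Bmi1-/- replicate 3 and 0.0030 without WT replicate 2, where Gli3 was 0.02. With 1 array left out, the range was -0.35 to 0.0076 for Shh, -0.14 to 0.42 for Ptch1, -0.0098 to 0.53 for Gli2, -0.17 to 0.021 for Gli3, -0.19 to 0.38 for Boc, -1.02 to -0.31 for Gas1, -0.54 to -0.065 for Hhip, 0.14 to 0.51 for Sufu and 0.029 to 0.21 for Smo. The cause was not tested. The number of all genes called, 11, was 5 under normexp, 0 with a filter on all 8 arrays (1265 at an unadjusted p under 0.05), 7 with a common floor, 22 with array weights, 0 on slide 1 alone (1114 at an unadjusted p under 0.05) and 19 on slide 2 alone, and 9 to 14 when 1 array was left out. The median of all genes moved to 0.17 under normexp and to 0.13 without a filter, and relative to it the fold change of Smo under normexp (0.16) was just below the median. No paired analysis was possible because the labels number no replicates within the genotypes: the numbers 1 to 4 used here follow the order of deposit and pair no samples. Dim probes, such as the second ones of Gli2, Gli3 and Sufu, lay near background, where the arrays resolve little.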
